A study of Arabidopsis thaliana with 6 samples.

Results

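The WRKY proteins are a plant family of transcription factors named after a conserved stretch of amino acids in their DNA-binding domain. The 57 genes described here are Arabidopsis thaliana genes named between WRKY1 and WRKY75, taken from a fixed list of gene identifiers. WRKY domains that are fused to immune receptors are left out. The list does not hold every number in this range, and sums, shares and ranks of the family given below are those of the 57 genes. All 57 were found among the 28775 genes of the count files, and the symbols of the reference annotation matched their names, with WRKY1 also listed as ZAP1 and WRKY44 as TTG2. Members fall into 7 groups by the number of WRKY domains, the form of the zinc finger beside the domain and sequence likeness: 10 in group I, 3 in IIa, 8 in IIb, 13 in IIc, 7 in IId, 7 in IIe and 9 in III.

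WRKY factors bind the W box, a short DNA element with the core TTGAC, and many WRKY genes carry W boxes themselves, so that members regulate each other. They are known for their part in immune responses, wounding, senescence, drought and phosphate nutrition, and several are switched on within minutes of a stimulus. Mitogen-activated protein kinases (MAP kinases) phosphorylate some of them, and small proteins with a VQ motif bind to others. MYC2 is a basic helix-loop-helix factor of the jasmonate pathway that binds the G-box CACGTG, and jasmonate and salicylic acid signalling meet at several WRKY genes.

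Poly(A) RNA was sequenced from the aerial parts of 2-week-old seedlings kept at 22 °C under days of 16 h and nights of 8 h, in 3 libraries of the mutant myc2 and 3 of the wild-type accession Col-0. The sources used here do not name the allele of myc2, and both genotypes received the same growth conditions, with no elicitor or wounding stated. Totals were 25439397 to 26597891 counts in myc2 and 21165967 to 30604815 counts in Col-0, so that 1 read was worth 0.0344 to 0.0482 CPM (counts scaled to the library size). MYC2 itself had 1822, 2007 and 1864 counts in myc2 and 4808, 4085 and 5087 counts in Col-0, so its transcript was lower in the mutant but present. Per the file headers, the 3 myc2 libraries came from 1 sequencing run, Col-0 replicates 1 and 2 from another and Col-0 replicate 3 from still another, so the effect of genotype and that of the run cannot be told apart. Col-0 replicate 3 is 1 library, so a test of it against replicates 1 and 2 borrows its spread from the other libraries. As examples, the log2 difference from replicates 1 and 2 was -0.72 for WRKY32, 0.94 for WRKY14 and -2.01 for WRKY65, the last on few reads. Over the tested WRKY genes, the median log2 fold change of myc2 was -0.10 against replicates 1 and 2 and -0.03 against replicate 3. For all genes tested these medians were 0.01 and 0.02. Green shoot markers dominated, with summed levels of 43111 to 45005 CPM in myc2 and 45472 to 54498 CPM in Col-0. Summed root markers were at 64.1 to 66.3 CPM in myc2 and 46.7 to 56.9 CPM in Col-0, nearly all from SCR and SHR, which shoots also express. Without SCR and SHR the root markers summed to under 1 CPM in every library, and between 3 and 6 of the 10 were at 0. The flower and seed markers summed to 1.64 to 2.27 CPM in myc2 and 1.73 to 2.64 CPM in Col-0. The study calls its replicates biological, but the sources used here do not say whether they were grown apart. The p-values therefore measure only how far these samples spread, which may be technical in part.

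Because WRKY genes can be bound by WRKY factors, the 250 bases before the start of each gene were read from the TAIR10.1 genome. The 4 sequences below are those of WRKY40, WRKY33 and WRKY53, which fell in myc2, and of WRKY29, which rose, all 5′ to 3′ on the strand of the gene, with the W box core TTGAC or its complement GTCAA in capitals.
WRKY40, chr1:30383311-30383560, plus strand: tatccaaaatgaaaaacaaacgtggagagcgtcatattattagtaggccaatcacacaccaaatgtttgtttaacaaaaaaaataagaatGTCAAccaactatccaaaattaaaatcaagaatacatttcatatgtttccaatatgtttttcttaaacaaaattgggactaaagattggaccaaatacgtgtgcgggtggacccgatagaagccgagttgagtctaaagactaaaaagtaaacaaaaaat
WRKY33, chr2:16107985-16108234, plus strand: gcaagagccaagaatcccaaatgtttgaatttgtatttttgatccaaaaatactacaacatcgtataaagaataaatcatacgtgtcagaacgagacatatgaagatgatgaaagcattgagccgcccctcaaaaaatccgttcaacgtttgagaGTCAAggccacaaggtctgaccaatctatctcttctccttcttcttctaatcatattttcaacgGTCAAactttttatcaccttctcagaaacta
WRKY53, chr4:12393983-12394232, minus strand: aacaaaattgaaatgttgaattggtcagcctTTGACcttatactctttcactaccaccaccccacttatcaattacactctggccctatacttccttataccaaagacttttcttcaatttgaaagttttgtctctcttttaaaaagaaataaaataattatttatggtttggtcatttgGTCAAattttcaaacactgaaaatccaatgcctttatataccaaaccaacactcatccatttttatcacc
WRKY29, chr4:12291382-12291631, plus strand: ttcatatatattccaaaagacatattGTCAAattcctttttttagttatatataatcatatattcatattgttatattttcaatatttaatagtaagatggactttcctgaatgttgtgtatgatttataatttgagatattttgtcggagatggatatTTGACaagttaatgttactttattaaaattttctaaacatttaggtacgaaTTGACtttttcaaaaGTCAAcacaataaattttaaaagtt
The core began 160 bases before the start of WRKY40, 95 and 31 bases before that of WRKY33, 219 and 70 bases before that of WRKY53, and 224, 91, 40 and 25 bases before that of WRKY29. The genes printed are examples that hold the core. Of the other WRKY genes changed at least 2-fold, WRKY46, WRKY8 and WRKY44 held it in these 250 bases. WRKY18, WRKY48, WRKY22, WRKY60 and WRKY65 did not.

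In the window from 250 bases before to 50 bases after the start, TTGAC on either strand stood in 35 of the 57 WRKY genes (61.4%), against 50.5% of 27438 protein-coding genes. It was in 10 of the 14 WRKY genes that fell in myc2, 7 of the 12 that rose, 11 of the 21 that did not pass and 7 of the 10 not tested. In the 250 bases before the start alone it was in 10 of the 14 that fell and 4 of the 12 that rose, against 44.9% of all genes. The longer forms TTGACC and TTGACT, which contain the core, stood in 9 (15.8%) and 17 (29.8%) WRKY genes, against 14.2% and 21.8% of all genes. The G-box CACGTG, its own reverse complement, stood in 6 WRKY genes (WRKY2, WRKY12, WRKY15, WRKY44, WRKY45 and WRKY51), which was 10.5% of the family against 7.68% of all genes. Of these 6, WRKY15 and WRKY44 fell in myc2, WRKY12 and WRKY45 rose, and WRKY2 and WRKY51 did not pass. The G-box counted for WRKY45 lies in the neighbouring gene AT3G01980 and is not shown. The windows of WRKY40, WRKY33, WRKY18 and WRKY46 held no CACGTG, as was the case for most genes. Only this exact sequence was searched, and the letters alone do not show whether any factor binds there. The 3 G-boxes shown here with 20 bases on each side belong to genes that changed, with CACGTG in capitals.
WRKY44, chr2:15644608-15644653, plus strand: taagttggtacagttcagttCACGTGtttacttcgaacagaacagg
WRKY15, chr2:9924699-9924744, plus strand: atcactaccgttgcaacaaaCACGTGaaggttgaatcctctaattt
WRKY12, chr2:18449162-18449207, minus strand: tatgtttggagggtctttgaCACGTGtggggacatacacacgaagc
They began 183, 167 and 94 bases before the gene starts, in this order.

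Of the 57 WRKY genes, 47 had enough reads to be tested, and 26 of these (55.3%, against 36.3% of all genes) differed between myc2 and Col-0 at an adjusted p under 0.05 (edgeR quasi-likelihood test, adjusted over all 18961 genes tested). Of the WRKY genes tested, 12 rose in myc2 (25.5%) and 14 fell (29.8%), against 17.6% and 18.7% of all genes tested. The stronger changes were mostly falls, with 9 WRKY genes lower at least 2-fold (19.1%, against 3.82% of all genes) and 3 higher (6.38%, against 2.73%). The median log2 fold change of the 47 was -0.07, and that of all genes 0.01. Of 8 listed reference genes, all tested, 5 changed as well (62.5%), with log2 fold changes from -0.44 to 0.74. Several WRKY calls were smaller in size than these. The libraries of the genotypes did not overlap for 30 of the 47 (63.8%, against 49.7% of all genes), of which 14 were higher in myc2 (against 25.4% of all genes) and 16 lower (against 24.3%). Since these are bulk samples of whole shoots, fewer cells of a type and less RNA per cell cannot be told apart. The rises depended more on single libraries than the falls did. Leaving out 1 library left 5 to 13 rises and 12 to 16 falls, with 6 rises without myc2 replicate 1 and 5 without myc2 replicate 2. Over all genes it left 2351 to 4082 rises and 2662 to 4335 falls, against 3339 and 3550 with all libraries. A loss of calls with fewer libraries was thus not particular to the WRKY genes.

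**Figure D1:**
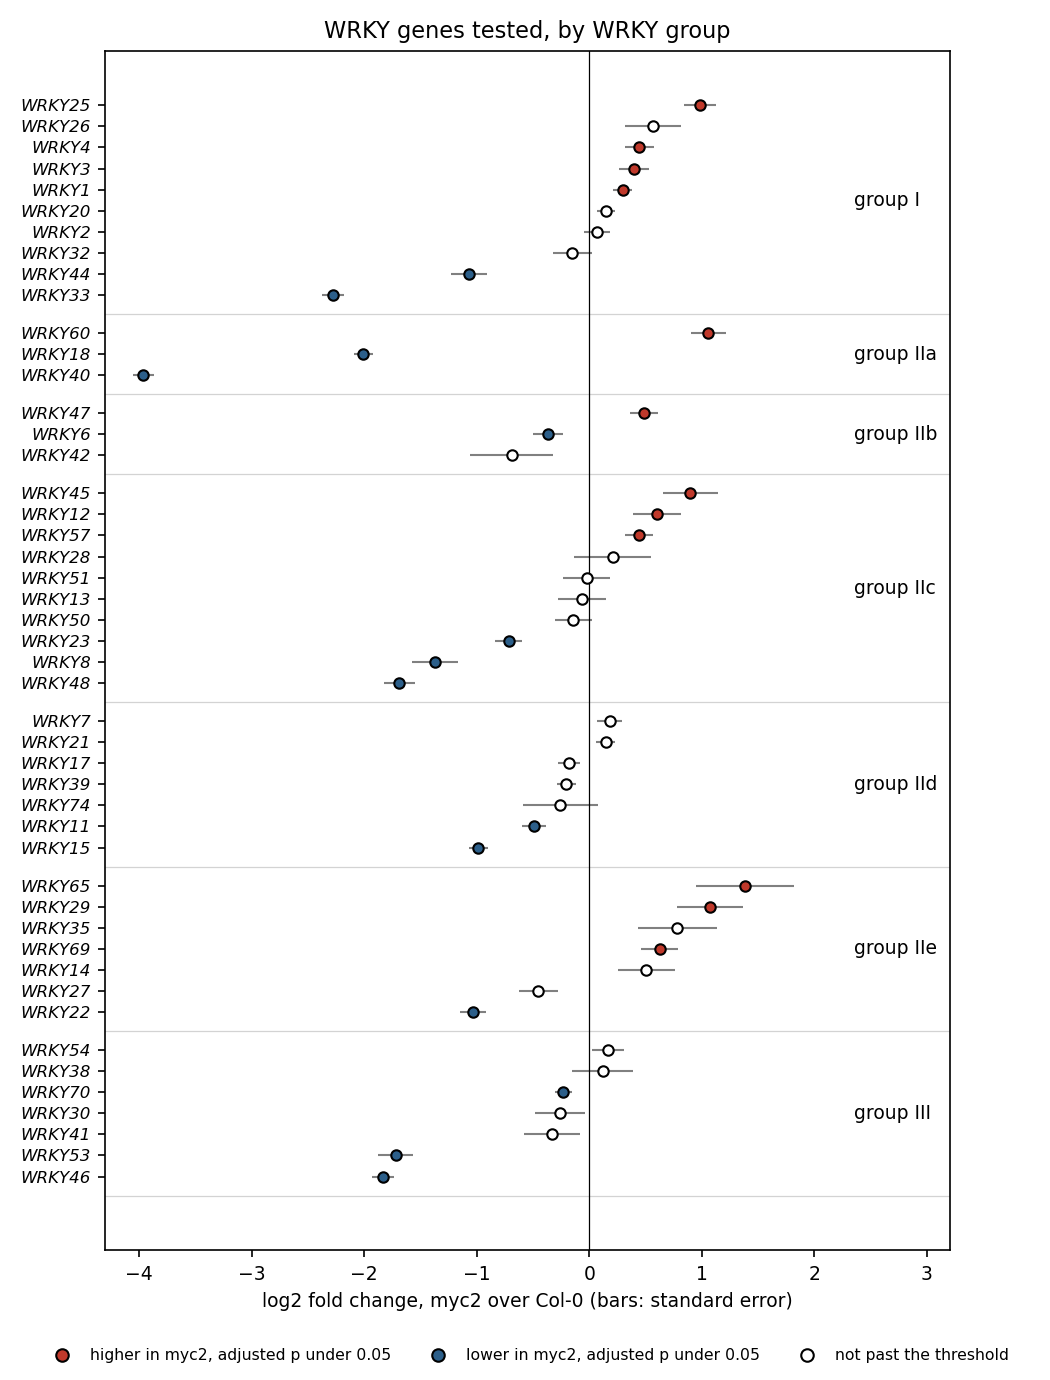
Log2 fold change of myc2 over Col-0 (horizontal axis, bars: standard error) for the 47 WRKY genes tested, sorted within each WRKY group, with filled points for an adjusted p under 0.05. Group IIa spanned from -3.96 (WRKY40) to 1.06 (WRKY60). Groups IId and III, with 7 genes tested each, held no gene that rose, while 17.6% of all genes rose.

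Group IIa held the widest split. WRKY18, WRKY40 and WRKY60 are related factors that form complexes with each other and are known as partly redundant regulators of basal defence and abscisic acid responses. WRKY40 (AT1G80840, chromosome 1, 30383561 to 30385499, plus strand) had 4.28, 3.62 and 3.62 CPM in the myc2 libraries, against 60.8, 58.0 and 60.8 CPM in the Col-0 libraries. Every Col-0 library stood more than 10-fold above every myc2 library, and WRKY40 was 15.6-fold lower in myc2, the largest change in the family (log2 fold change -3.96, SE 0.0937, edgeR adjusted p = 8.13e-11). WRKY18 (AT4G31800) followed with 10.7, 11.8 and 11.9 CPM in myc2, against 47.7, 48.0 and 42.8 CPM in Col-0. It was 4.02-fold lower (log2 fold change -2.01, SE 0.0860, edgeR adjusted p = 9.53e-09). WRKY60 (AT2G25000) went the other way, with 7.04, 8.68 and 7.24 CPM in myc2, against 4.18, 4.0 and 2.96 CPM in Col-0. Its libraries did not overlap, and it was 2.08-fold higher in myc2 (log2 fold change 1.06, SE 0.156, edgeR adjusted p = 0.000277). These 3 calls held when any library was left out. A share of 4.07% of the 50-base words of WRKY40 also occurs elsewhere in the genome, and 3.85% of its exon bases overlap a gene on the other strand.

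**Figure D2:**
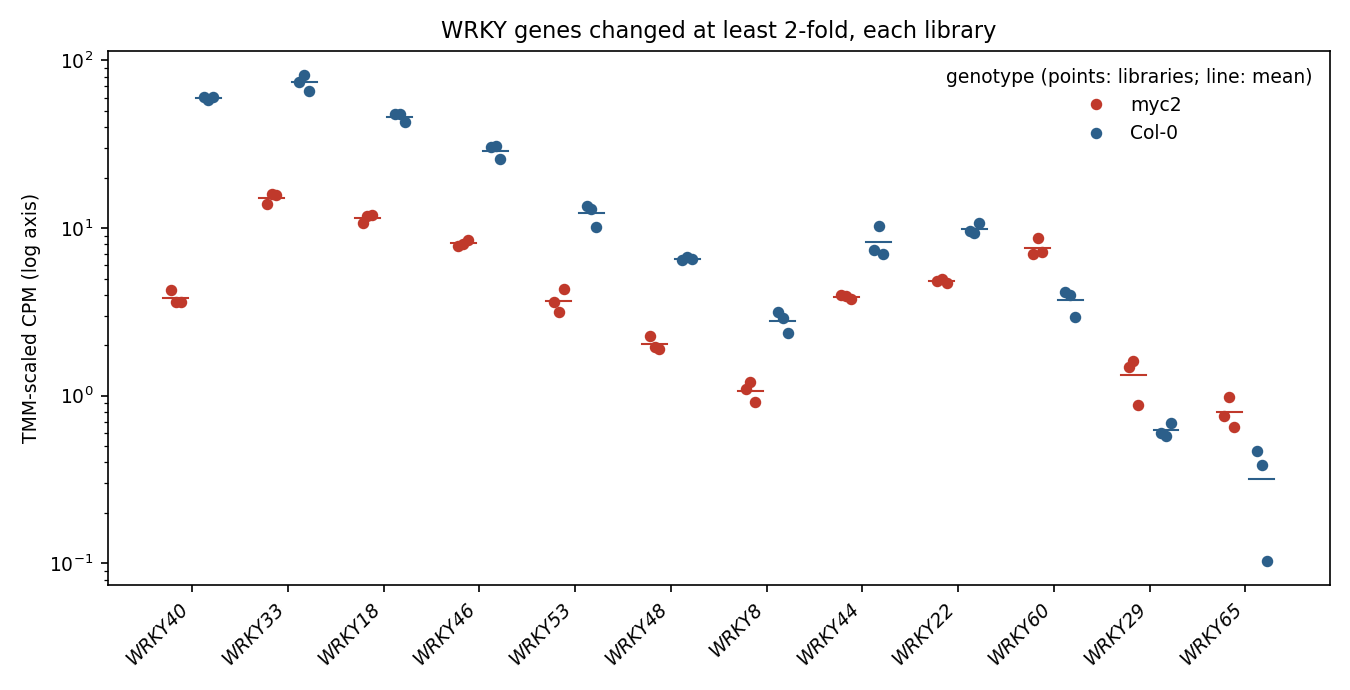
TMM-scaled CPM (log axis) of the 12 WRKY genes that changed at least 2-fold, with 1 point per library and a line at the mean of each genotype, myc2 left of Col-0. From WRKY40 to WRKY22 all myc2 points lie below the Col-0 points, and for WRKY60, WRKY29 and WRKY65 all lie above them.

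Group I members carry a pair of WRKY domains. Of 10 genes tested 4 were higher (against 17.6% of all genes), 2 lower (against 18.7%) and 4 did not pass. The share that rose was above that of all genes, and the share that fell was near it. The median log2 fold change was 0.22. WRKY33 (AT2G38470, chromosome 2, 16108235 to 16110766, plus strand) is a substrate of MAP kinases that is needed for camalexin production and for resistance to necrotrophic fungi. It had 13.9, 16.0 and 15.7 CPM in myc2, against 73.9, 81.9 and 66.0 CPM in Col-0. The lowest Col-0 library lay more than 4-fold above the highest myc2 library (log2 fold change -2.28, SE 0.0962, edgeR adjusted p = 8.59e-09). WRKY25, a near relative of WRKY33 with a role in heat tolerance, had 6.28, 7.36 and 6.55 CPM in myc2, against 3.03, 3.95 and 3.30 CPM in Col-0. Its libraries did not overlap, and it was 1.97-fold higher in myc2 (log2 fold change 0.98, SE 0.141, edgeR adjusted p = 0.000233). WRKY26, the other member of this set of relatives, had 1.44, 1.54 and 1.18 CPM in myc2 and 1.07, 1.06 and 0.723 CPM in Col-0, and did not pass (log2 fold change 0.57, edgeR adjusted p = 0.0927). WRKY44, or TTG2, acts in trichome and seed coat development and had 3.97, 3.92 and 3.77 CPM in myc2, against 7.42, 10.3 and 6.99 CPM in Col-0. The myc2 libraries lay close together below all Col-0 libraries, of which replicate 2 was the highest (log2 fold change -1.07, SE 0.158, edgeR adjusted p = 0.000280).

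The remaining group I genes differed less. WRKY1, the most abundant group I gene in myc2, had 40.2, 38.3 and 39.6 CPM in myc2, against 35.2, 32.0 and 28.9 CPM in Col-0, a rise of 0.30 on the log2 scale (edgeR adjusted p = 0.0157). The libraries of WRKY1 did not overlap, but the call was lost without myc2 replicate 1 (adjusted p = 0.0686) or myc2 replicate 3 (adjusted p = 0.0606). WRKY3 and WRKY4, a closely related pair with a role in resistance to necrotrophs, rose by 0.40 and 0.44 on the log2 scale (edgeR adjusted p = 0.0358 and 0.0182). For WRKY3 the libraries of the genotypes overlapped, and the call was lost without Col-0 replicate 1, myc2 replicate 1 or myc2 replicate 3 (adjusted p = 0.0524, 0.122 and 0.153). The call of WRKY4 was lost without Col-0 replicate 1, myc2 replicate 1 or myc2 replicate 2 (adjusted p = 0.0566, 0.0697 and 0.0761). WRKY20 had 36.6, 36.6 and 37.8 CPM in myc2, against 30.5, 33.6 and 36.0 CPM in Col-0, and did not pass (log2 fold change 0.15, edgeR adjusted p = 0.170), though it did without Col-0 replicate 3 (0.21, adjusted p = 0.0188). WRKY2 did not pass either. WRKY32 had 10.14, 9.59 and 10.06 CPM in myc2, inside the Col-0 range of 11.8, 13.8 and 7.78 CPM. Its sign depended on the Col-0 run, with a log2 fold change of -0.36 without Col-0 replicate 3 (edgeR adjusted p = 0.00878). Against that 1 library alone the log2 fold change was 0.35.

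Group III, which has a zinc finger of a different form and is rich in genes of salicylic acid signalling, held 0 genes that rose in edgeR (0 at an unadjusted p under 0.05, and 0 in DESeq2 and limma-voom). Of 9 members 7 were tested, 3 fell (42.9%, against 18.7% of all genes) and 4 did not pass (median log2 fold change -0.26). With 7 genes tested, 0 rises is little to set against the 17.6% of all genes that rose. WRKY46 (AT2G46400), which acts in basal defence and in stomatal control, had 7.80, 8.09 and 8.50 CPM in myc2, against 30.5, 30.8 and 25.8 CPM in Col-0. It was 3.57-fold lower in myc2 with no overlap (log2 fold change -1.83, SE 0.1001, edgeR adjusted p = 6.98e-08). WRKY53 (AT4G23810), a regulator of leaf senescence, had 3.63, 3.15 and 4.31 CPM in myc2, against 13.6, 12.9 and 10.2 CPM in Col-0. It was 3.30-fold lower with no overlap (log2 fold change -1.72, SE 0.152, edgeR adjusted p = 4.38e-06). A share of 22.5% of the exon bases of WRKY53 overlaps a gene on the other strand, and without a stated strand setting reads of the pair cannot be told apart. WRKY70 stands between salicylic acid and jasmonate responses and had the highest level per exon length of the family in both genotypes. Its levels were 63.7, 64.6 and 66.5 CPM in myc2, against 68.0, 82.0 and 78.5 CPM in Col-0. The difference was small, at -0.23 on the log2 scale (SE 0.0764, edgeR adjusted p = 0.0339), and the call was lost without Col-0 replicate 2 or any one of myc2 replicates 1 to 3 (adjusted p = 0.119, 0.123, 0.107 and 0.0838). WRKY54, which acts together with WRKY70, had 4.05, 3.81 and 3.66 CPM in myc2 and 3.16, 3.86 and 3.30 CPM in Col-0, and did not pass (log2 fold change 0.16, edgeR adjusted p = 0.402). WRKY30, WRKY38 and WRKY41 did not pass, with log2 fold changes of -0.26, 0.12 and -0.33 at levels of 0.729 to 1.43 CPM. A share of 41.7% of the exon bases of WRKY41 overlaps a gene on the other strand.

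Group IIc, the largest, was divided (median log2 fold change -0.05). Of 10 genes tested 3 were higher (30.0%, against 17.6% of all genes), 3 lower (30.0%, against 18.7%) and 4 did not pass. WRKY48, a repressor of basal defence, had 2.27, 1.94 and 1.91 CPM in myc2, against 6.48, 6.75 and 6.50 CPM in Col-0. The genotypes did not overlap, and WRKY48 was 3.22-fold lower in myc2 (log2 fold change -1.69, SE 0.139, edgeR adjusted p = 2.38e-06). WRKY8, which acts in defence and salt tolerance, had 1.098, 1.21 and 0.914 CPM in myc2, against 3.16, 2.89 and 2.37 CPM in Col-0 (log2 fold change -1.37, SE 0.203, edgeR adjusted p = 0.000277). WRKY23, an auxin-responsive gene, had 4.39, 4.58 and 5.03 CPM in myc2, against 7.85, 8.14 and 7.09 CPM in Col-0 (log2 fold change -0.72, SE 0.122, edgeR adjusted p = 0.000759). The calls of these 3 genes held when any library was left out. WRKY57, a drought tolerance gene with the highest level per exon length of the group, had 13.8, 15.01 and 12.2 CPM in myc2, against 8.53, 10.3 and 11.4 CPM in Col-0. It rose by 0.44 on the log2 scale (edgeR adjusted p = 0.0170), which was lost without Col-0 replicate 1, myc2 replicate 1 or myc2 replicate 2 (adjusted p = 0.058, 0.0597 and 0.0875).

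The other group IIc genes that rose were of low level. WRKY45, which activates a phosphate transporter gene, rose by 0.90 on the log2 scale at 1.90 ± 0.312 CPM in myc2 and 1.04 ± 0.273 CPM in Col-0 (SD, n = 3 each; edgeR adjusted p = 0.0123, and 0.0591 without myc2 replicate 2). WRKY12, a repressor of secondary wall formation in pith, rose by 0.60 on the log2 scale at 1.98 ± 0.380 CPM in myc2 and 1.31 ± 0.173 CPM in Col-0 (SD, n = 3 each; edgeR adjusted p = 0.0463). The call of WRKY12 was lost without any one of 5 libraries, namely Col-0 replicates 1, 2 and 3 and myc2 replicates 2 and 3 (adjusted p = 0.121, 0.0559, 0.0657, 0.0844 and 0.191). WRKY50 and WRKY51, which are needed for the repression of jasmonate responses under low oleic acid, did not pass. WRKY50 had 2.95, 2.89 and 2.82 CPM in myc2, inside the range of 3.58, 2.55 and 3.37 CPM in Col-0 (log2 fold change -0.14, edgeR adjusted p = 0.528). WRKY13 and WRKY28 did not pass either.

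Group IId, whose members bind calmodulin, held 2 genes that fell, 0 that rose and 5 that did not pass (median log2 fold change -0.20). It also held 0 rises at an unadjusted p under 0.05, in DESeq2 and in limma-voom. The share that fell was 28.6%, against 18.7% of all genes. The share that changed at all was below the 36.3% of all genes. With 7 genes tested, 0 rises is little to set against the 17.6% of all genes that rose. WRKY15, known from growth and osmotic stress responses, had 17.6, 19.4 and 17.6 CPM in myc2, against 34.9, 33.8 and 39.3 CPM in Col-0. It was 1.98-fold lower with no overlap (log2 fold change -0.99, SE 0.0868, edgeR adjusted p = 4.38e-06). WRKY11 and WRKY17 are a related pair of negative regulators of basal resistance. WRKY11 had 15.9, 15.9 and 13.5 CPM in myc2, against 19.5, 20.2 and 23.7 CPM in Col-0, and fell by 0.49 on the log2 scale (SE 0.106, edgeR adjusted p = 0.00355). WRKY17 had 16.9, 15.2 and 14.5 CPM in myc2, overlapping the 17.6, 18.7 and 16.6 CPM in Col-0 in 1 library, and did not pass (log2 fold change -0.18, edgeR adjusted p = 0.158). WRKY21 had 19.7, 18.7 and 19.5 CPM in myc2 and 16.9, 16.7 and 18.6 CPM in Col-0, and did not pass (log2 fold change 0.15, edgeR adjusted p = 0.209). WRKY7, WRKY39 and WRKY74 had log2 fold changes of 0.18, -0.20 and -0.26 and did not pass. The calls of WRKY15 and WRKY11 held when any library was left out.

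In group IIe 3 of 7 genes rose (42.9%, against 17.6% of all genes), 1 fell (14.3%, against 18.7%) and 3 did not pass. Its median log2 fold change was 0.63 and moved the most of the 7 groups with the Col-0 run. Set against Col-0 replicates 1 and 2 alone it was 0.89, and set against Col-0 replicate 3 alone 0.19. WRKY22 and WRKY29 are known as factors downstream of the MAP kinase cascade that bacterial flagellin activates. WRKY22 had 4.81, 4.94 and 4.72 CPM in myc2, against 9.60, 9.30 and 10.7 CPM in Col-0, and was 2.05-fold lower (log2 fold change -1.03, SE 0.114, edgeR adjusted p = 2.68e-05). WRKY29 had 1.48, 1.61 and 0.876 CPM in myc2, against 0.597, 0.578 and 0.688 CPM in Col-0, and was 2.10-fold higher (log2 fold change 1.07, SE 0.294, edgeR adjusted p = 0.0138). The call of WRKY29 was lost without myc2 replicate 1 (adjusted p = 0.0578) or myc2 replicate 2 (adjusted p = 0.0676), and 18.0% of its exon bases overlap a gene on the other strand. WRKY65 had 20, 27 and 17 reads in myc2, against 11, 8 and 3 reads in Col-0, of which the 3 reads were in replicate 3. WRKY65 was 2.61-fold higher (log2 fold change 1.39, SE 0.435, edgeR adjusted p = 0.0265), but not called without Col-0 replicate 3 (log2 fold change 0.89, adjusted p = 0.0775), myc2 replicate 1 (adjusted p = 0.0648) or myc2 replicate 2 (adjusted p = 0.108). Against Col-0 replicate 3 alone it was at 2.90 on the log2 scale. WRKY69 rose by 0.63 on the log2 scale (edgeR adjusted p = 0.0118, and 0.0632 without myc2 replicate 2), and 30.6% of its exon bases overlap genes on the other strand.

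The 3 group IIe genes that did not pass each passed in another choice of libraries. WRKY14 had 2.50, 2.01 and 2.36 CPM in myc2, against 1.24, 1.16 and 2.31 CPM in Col-0. Only Col-0 replicate 3 reached the myc2 range, and without it the log2 fold change was 0.93 (adjusted p = 0.00284), against 0.50 with it (edgeR adjusted p = 0.142). WRKY35 behaved alike, with 0.78 over all libraries (edgeR adjusted p = 0.106) and 1.33 without Col-0 replicate 3 (adjusted p = 0.0113). WRKY27, a gene of the response to bacterial wilt, had 2.50, 2.42 and 2.67 CPM in myc2, against 3.07, 3.04 and 4.16 CPM in Col-0. The genotypes did not overlap, and the log2 fold change of -0.45 (edgeR adjusted p = 0.0575) passed without Col-0 replicate 1 (-0.53, adjusted p = 0.0489).

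Group IIb was mostly near the limit of detection, with 3 of 8 genes tested. WRKY47 rose by 0.49 on the log2 scale, with 6.17, 6.70 and 6.90 CPM in myc2, against 4.35, 5.06 and 4.71 CPM in Col-0 (SE 0.123, edgeR adjusted p = 0.00890). WRKY6, a senescence gene that also represses the phosphate exporter gene PHO1, had 4.39, 5.75 and 5.56 CPM in myc2, against 6.61, 6.99 and 6.68 CPM in Col-0. Its fall of 0.37 on the log2 scale was at the threshold (edgeR adjusted p = 0.0477) and was lost without Col-0 replicate 1 or 2 or any one of myc2 replicates 1 to 3 (adjusted p = 0.0735, 0.103, 0.189, 0.0582 and 0.082). WRKY42, which acts on PHO1 as well, had 0.719, 0.329 and 0.876 CPM in myc2 and 1.41, 1.01 and 0.723 CPM in Col-0. It did not pass with all libraries (log2 fold change -0.69, edgeR adjusted p = 0.168) but did without Col-0 replicate 3 (-0.93, adjusted p = 0.0399).

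The 10 WRKY genes not tested were WRKY9, WRKY31, WRKY36, WRKY61 and WRKY72 of group IIb, WRKY24, WRKY71 and WRKY75 of group IIc, and WRKY55 and WRKY62 of group III. None had more than 16 reads in any library. With a filter of only 1 read, edgeR called 0 of the 10, and 1, the phosphate starvation gene WRKY75, had an unadjusted p under 0.05 (edgeR adjusted p = 0.0971). DESeq2 called 0 of them as well, with 0 at an unadjusted p under 0.05. No difference was therefore called in these genes, and their low counts limit which differences could be detected at this depth.

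Levels of different WRKY genes can be compared only per length, for which CPM was divided by the exon length of the gene in kb. In myc2 the most abundant on this scale were WRKY70 with 44.2, WRKY1 with 18.9 and WRKY15 with 14.2 CPM per kb. In Col-0 they were WRKY70 with 51.8, WRKY40 with 45.2, WRKY33 with 36.5, WRKY15 with 28.1, WRKY18 with 22.8 and WRKY46 with 21.4 CPM per kb. WRKY70 and WRKY15 were thus near the top in both genotypes. WRKY40 ranked 23 of 57 in myc2 with 2.90 CPM per kb and 2 of 57 in Col-0, and WRKY33 ranked 8 in myc2 with 7.51 CPM per kb and 3 in Col-0. WRKY18 ranked 15 in myc2 and 5 in Col-0, WRKY46 ranked 12 in myc2 and 6 in Col-0, and WRKY53 ranked 27 in myc2 and 11 in Col-0.

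**Figure D3:**
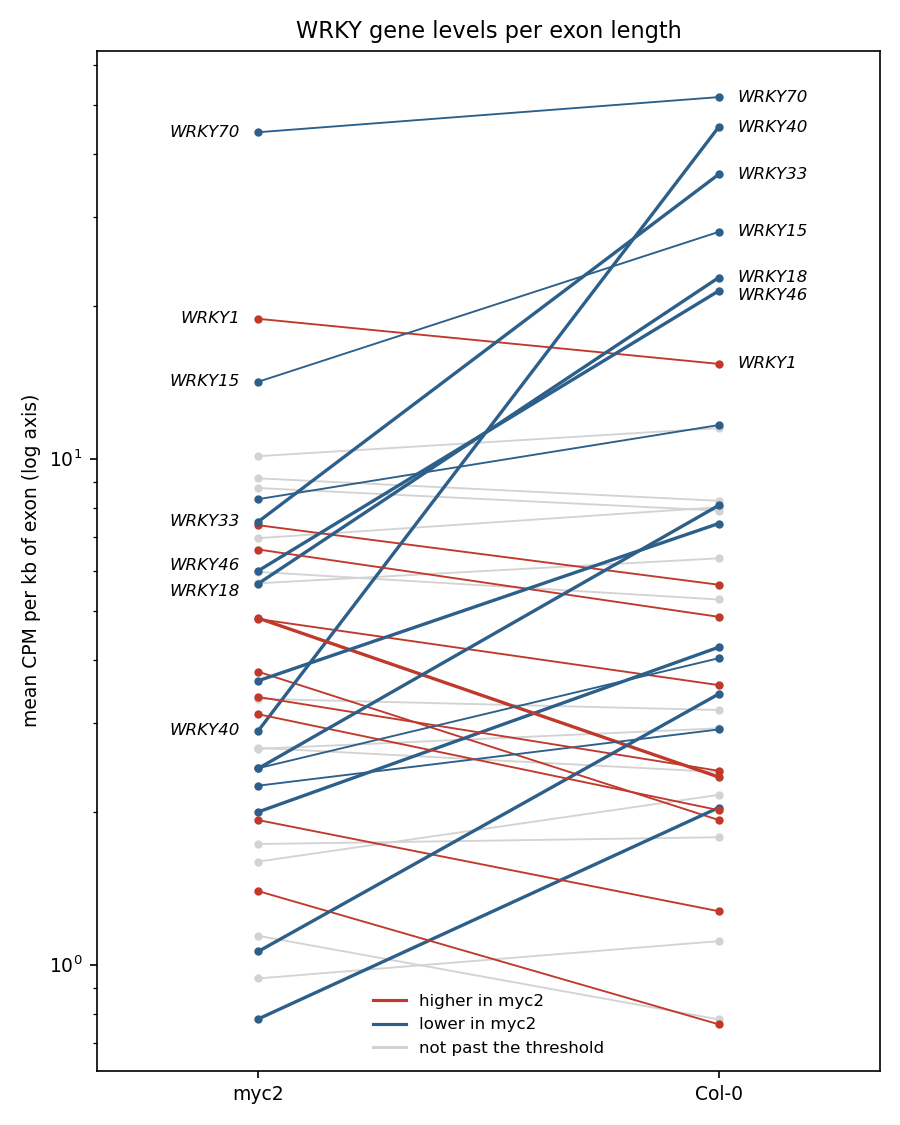
Mean CPM per kb of exon (log axis) in myc2 and Col-0, with 1 line per WRKY gene that reached 1 CPM per kb in either genotype, thick where an edgeR call was at least 2-fold. WRKY70 was the highest in both genotypes, while WRKY40 lay at 2.90 in myc2 and at 45.2 in Col-0.

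Summed over the listed genes, WRKY transcripts made up 414, 423 and 419 CPM in the myc2 libraries, against 612, 640 and 605 CPM in the Col-0 libraries. WRKY40, WRKY33, WRKY18 and WRKY46 held 8.86%, 9.36% and 9.49% of this sum in myc2, against 34.8%, 34.2% and 32.3% in Col-0. Without these 4 genes, chosen after their values were seen, the sums were 377, 383 and 379 CPM in myc2 and 399, 422 and 410 CPM in Col-0. The genotypes still did not overlap, but most of the difference in the family total lay in the 4 genes. WRKY70 held 15.4%, 15.3% and 15.9% of the sum in myc2 and 11.1%, 12.8% and 12.97% in Col-0.

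Ratios of related WRKY genes within a library do not depend on the scaling of that library, and 7 pairs were compared as a description, chosen after their values were seen. Per exon length, WRKY40 stood at 0.725, 0.499 and 0.597 times WRKY60 in myc2, and at 17.4, 17.3 and 24.5 times WRKY60 in Col-0, so the more abundant gene of the pair was not the same in the genotypes. The ratio of WRKY18 to WRKY60 was 1.19, 1.06 and 1.29 in myc2, against 8.90, 9.37 and 11.3 in Col-0. WRKY33 was at 1.94, 1.91 and 2.10 times WRKY25 in myc2 and at 21.4, 18.1 and 17.5 times WRKY25 in Col-0. WRKY33 thus remained the more abundant of this pair in every library. For the flagellin-response pair, WRKY22 was at 3.42, 3.22 and 5.66 times WRKY29 in myc2 and at 16.9, 16.9 and 16.3 times WRKY29 in Col-0. In group III, WRKY46 was at 5.69 to 7.87 times WRKY30 in myc2 and at 14.6 to 23.4 times in Col-0, and WRKY53 at 2.67 to 4.63 times WRKY41 in myc2 and at 6.60 to 9.93 times in Col-0. The ratio of WRKY11 to WRKY17 was closest between genotypes, with 0.787 to 0.886 in myc2 and 0.912 to 1.21 in Col-0. In none of the 7 pairs did the genotypes overlap, which follows largely from the choice of pairs. The first gene of each pair was called lower in myc2 and the second was not. No share over other gene pairs was computed.

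**Figure D4:**
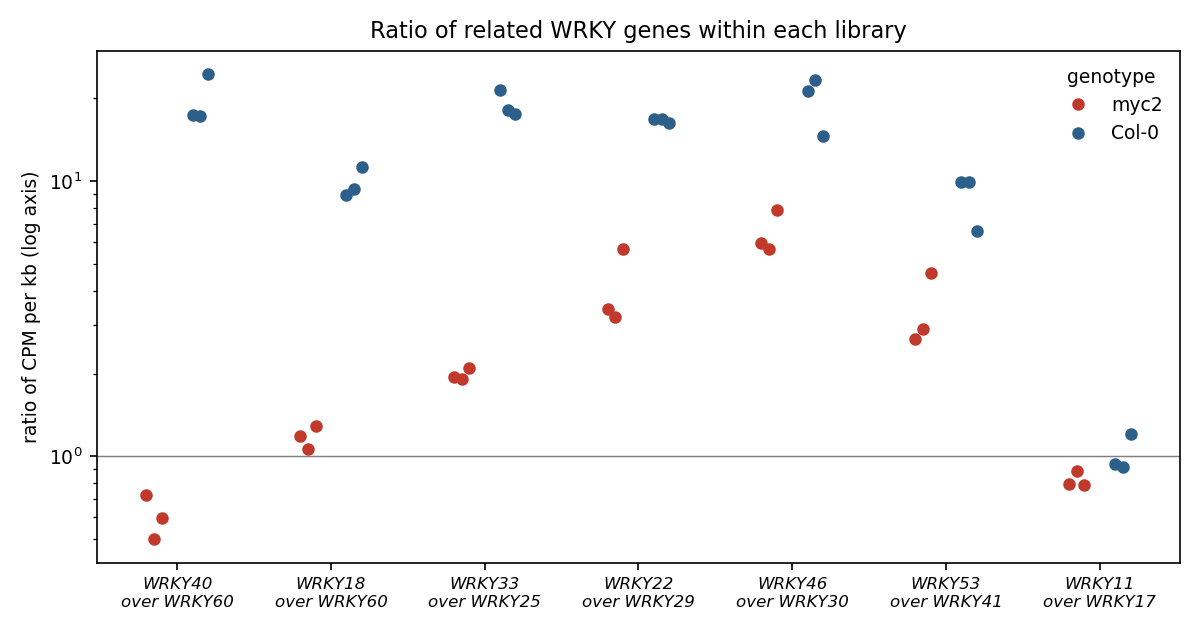
Ratio of CPM per kb between related WRKY genes within each library (log axis), with 1 point per library and myc2 left of Col-0. The WRKY40 to WRKY60 ratio lies below 1 in the 3 myc2 libraries and at 17.3 to 24.5 in Col-0.

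In the MAP kinase cascades that act on WRKY factors, changes stayed under 2-fold apart from MKK9. Of 13 listed genes, all tested, 2 rose (15.4%, against 17.6% of all genes), 3 fell (23.1%, against 18.7%) and 8 did not pass (median log2 fold change -0.09). These shares are near those of all genes, and 4 to 7 changed when 1 library was left out. MPK3, which phosphorylates WRKY33, had 82.4, 80.2 and 80.0 CPM in myc2, against 140, 146 and 160 CPM in Col-0 (log2 fold change -0.88, SE 0.0662, edgeR adjusted p = 1.09e-06). Its partner kinase MPK6 had 41.4, 43.0 and 41.5 CPM in myc2 and 35.7, 40.4 and 41.5 CPM in Col-0, and did not pass (log2 fold change 0.10, edgeR adjusted p = 0.349). The kinase kinases MKK9 and MKK4 fell by 1.17 and 0.48 on the log2 scale (edgeR adjusted p = 3.86e-06 and 0.00227). MAPKKK3, higher up in the cascade, rose by 0.37 on the log2 scale (edgeR adjusted p = 0.00177), and MKK1 by 0.39 (edgeR adjusted p = 0.00880, and 0.0517 without myc2 replicate 1). Of 20 listed VQ proteins, which bind WRKY factors, 14 were tested, 0 rose in edgeR (0 at an unadjusted p under 0.05, and 0 in DESeq2 and limma-voom), 4 fell and 10 did not pass (median log2 fold change -0.17). The share that changed, 28.6%, was below the 36.3% of all genes, and 4 changed whichever library was left out. CAMBP25 (VQ15) had 11.3, 12.3 and 10.9 CPM in myc2, against 17.8, 21.2 and 25.5 CPM in Col-0 (log2 fold change -0.90, SE 0.127, edgeR adjusted p = 0.000186). VQ32, VQ11 and VQ12 fell by 0.59, 0.85 and 1.17 on the log2 scale (edgeR adjusted p = 0.00231, 0.00581 and 0.00260). SIB1 and MKS1, which bind WRKY33, were at 5.85 ± 0.391 and 3.38 ± 0.178 CPM in myc2 and at 6.73 ± 0.436 and 3.54 ± 0.688 CPM in Col-0 (SD, n = 3 each), and did not pass.

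Of 16 genes that other work has described as direct WRKY targets, 14 were tested, and 6 rose, 7 fell and 1 (EDS1) did not pass (median log2 fold change -0.34). The share that changed was 92.9%, against 36.3% of all genes, in a list chosen with earlier results known. Leaving out 1 library gave 12 to 13 changed targets. Described targets of WRKY33 moved in both directions. The ethylene synthesis gene ACS6 had 35.4, 36.2 and 35.4 CPM in myc2, against 228, 219 and 212 CPM in Col-0, and was 6.16-fold lower (log2 fold change -2.62, SE 0.0622, edgeR adjusted p = 8.13e-11). NCED3, a gene of abscisic acid synthesis that WRKY33 represses, had 2.38, 2.97 and 2.48 CPM in myc2, against 25.3, 25.6 and 25.1 CPM in Col-0 (log2 fold change -3.28, SE 0.112, edgeR adjusted p = 1.65e-09). In camalexin synthesis, CYP71A13 had 5.03, 5.64 and 5.30 CPM in myc2, against 18.6, 18.9 and 18.1 CPM in Col-0 (log2 fold change -1.80, SE 0.0994, edgeR adjusted p = 7.77e-08). PAD3, the last enzyme of that pathway, had 3.97, 4.36 and 4.19 CPM in myc2, against 1.15, 1.45 and 1.14 CPM in Col-0, and rose by 1.76 on the log2 scale (SE 0.169, edgeR adjusted p = 9.74e-06). CYP71A12, a close copy of CYP71A13, rose by 1.98 on the log2 scale (edgeR adjusted p = 0.000938), and reads of the pair could have been divided in counting.

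Described targets of other members moved in both directions too. RRTF1 and JAZ8, which WRKY40 represses, were both lower, RRTF1 with 0.265, 0.659 and 0.572 CPM in myc2, against 38.9, 35.5 and 28.5 CPM in Col-0 (log2 fold change -6.08, SE 0.213, edgeR adjusted p = 2.75e-09). JAZ8 had 16, 3 and 3 reads in myc2, against 106, 86 and 150 reads in Col-0, so myc2 replicate 1 held most of its myc2 reads. Its log2 fold change was -4.05 (edgeR adjusted p = 8.71e-06), and -5.31 without that library (adjusted p = 3.01e-06). EDS1, a further target that WRKY40 represses, had 23.2, 25.6 and 25.3 CPM in myc2, inside the range of 27.3, 29.0 and 20.1 CPM in Col-0 (log2 fold change -0.04, edgeR adjusted p = 0.840). The sign of EDS1 depended on the Col-0 libraries, with -0.19 against replicates 1 and 2 and 0.30 against replicate 3, which is 1 library. FRK1, a flagellin-response gene used as a readout of WRKY22 and WRKY29, had 4.69, 3.77 and 3.51 CPM in myc2, against 1.11, 0.964 and 0.516 CPM in Col-0. FRK1 thus rose by 2.24 on the log2 scale (SE 0.247, edgeR adjusted p = 2.72e-05; 2.94 against Col-0 replicate 3 alone), while WRKY29 rose and WRKY22 fell. Of the phosphate transport genes, PHT1.1, a target of WRKY45, had 16, 16 and 19 reads in myc2, against 1, 4 and 1 reads in Col-0. It rose by 2.88 on the log2 scale (edgeR adjusted p = 0.00129), a size that rests on few Col-0 reads, since it was 3.90 without Col-0 replicate 2 (adjusted p = 0.00118). PHO1, a target of WRKY6 and WRKY42, rose by 0.39 on the log2 scale (edgeR adjusted p = 0.00117). ICS1, the salicylic acid synthesis gene that WRKY28 activates, rose by 0.39 on the log2 scale (edgeR adjusted p = 0.00461). GL2, a trichome regulator activated by WRKY44, fell by 0.65 on the log2 scale (edgeR adjusted p = 0.000710), in the same direction as WRKY44. NCED5 fell too (edgeR adjusted p = 0.0309), but not past the threshold without Col-0 replicate 1 or 2 or myc2 replicate 2 or 3 (adjusted p = 0.0858, 0.0559, 0.118 and 0.0993) or in DESeq2 (adjusted p = 0.113), and ACS2 and ALMT1 had too few reads to be tested.

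**Figure D5:**
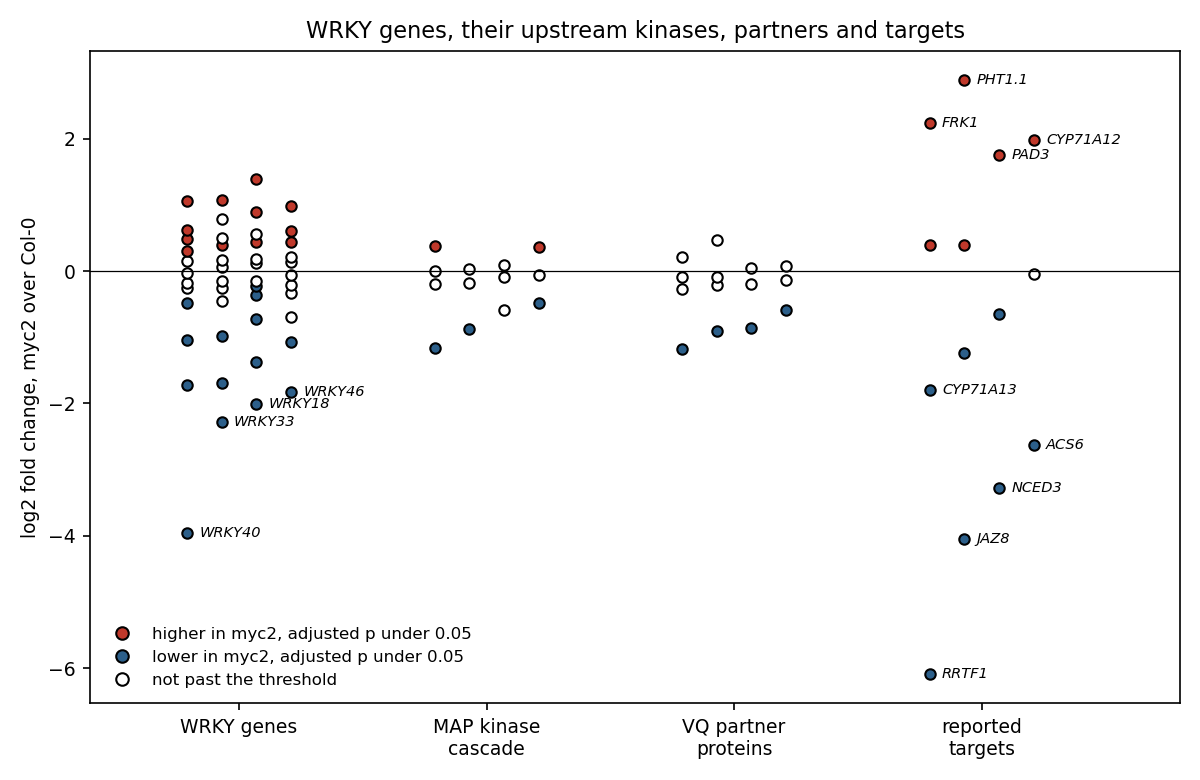
Log2 fold change of myc2 over Col-0 for the tested WRKY genes, the MAP kinase cascade genes, the VQ partner proteins and the described WRKY targets, with filled points for an adjusted p under 0.05 and the horizontal place within a list without meaning. The described targets spread from -6.08 (RRTF1) to 2.88 (PHT1.1), wider than the WRKY genes, which spread from -3.96 to 1.39.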

How the data were processed

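The authors deposited 1 table of whole-number read counts per gene for each library, made from poly(A) RNA-seq reads aligned to TAIR10. Their processing notes name fastp, HISAT2, SAMtools and StringTie. The sources used here give neither versions nor the read counter, nor its strand setting or annotation release, and reads of overlapping genes on opposite strands cannot be told apart. Another deposited file, with fold changes and p-values of the authors' own test, was not used.

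Low genes were removed with filterByExpr, libraries were scaled by the trimmed mean of M-values (TMM), and genotype was tested as the only term with edgeR 4.0.16 (robust quasi-likelihood F-test, R 4.3.3). P-values were adjusted over 18961 genes by the Benjamini-Hochberg method and called under 0.05. The script was tested on simulated data. The biological coefficient of variation was 8.44%. CPM are TMM-scaled, and CPM per kb use the union of annotated exons. Gene coordinates, upstream sequences and motif counts come from the RefSeq TAIR10.1 genome, matched by gene identifier.

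All replicates of a genotype differed by more than sampling noise (chi-square per degree of freedom 2.46 to 20.1) and each counted as 1. The members, their groups and the kinase, VQ, target, marker and reference lists were chosen with earlier results of these data known. Values per library were given for WRKY genes changed at least 2-fold at 1 CPM or more, for the gene with the highest CPM of each group and for the one with the highest CPM in either genotype that did not pass, and for up to 4 genes per further list by adjusted p and 1 that did not pass. The other genes described with values, the gene pairs and the 4 genes singled out in the family sum were chosen with their values in view. The alternatives were DESeq2 1.42.0, limma-voom 3.58.1, scaling by RLE or upper quartiles, a filter of only 1 read, one of 5 CPM in 3 libraries, a block for the replicate number, each library left out, each Col-0 run alone, and counts thinned to the smallest total.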

Additional observations from a re-analysis of the deposited data

How the results depend on the processing

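Of the 14 falls among the WRKY genes, 12 kept their direction and call in all alternatives that gave a value (exceptions WRKY6 and WRKY70), and of the 12 rises 3 did (WRKY25, WRKY47 and WRKY60), while 9 lost the call in at least 1. With at least 5 CPM required in 3 libraries, which left 27 WRKY genes in the test, 7 WRKY genes rose, 2 VQ genes and 7 described targets changed. Leaving out 1 library gave 5 to 13 rises and 12 to 16 falls, against 2351 to 4082 and 2662 to 4335 over all genes. DESeq2 gave 10 rises and 13 falls, and limma-voom 11 and 14. Replicate numbers did not pair the samples, since the deviations of libraries with the same number correlated at -0.03, 0.01 and 0.02, and the fit with the replicate number as a block gave 11 rises and 13 falls. The fit against Col-0 replicate 3 alone assumed that this 1 library varied like the other groups. Among the WRKY genes, signs changed only in those that did not pass. With Col-0 replicate 3 as the only Col-0 library, the log2 fold change was -0.012 for WRKY2, 0.35 for WRKY32, -0.027 for WRKY28, 0.32 for WRKY51 and -0.010 for WRKY14. WRKY51 was at 0.0021 with limma-voom and at 0.035 with thinned counts. With 1 library left out, WRKY2 ranged from -0.0093 to 0.15, WRKY32 from -0.36 to 0.026, WRKY28 from -0.11 to 0.41 and WRKY51 from -0.20 to 0.069. The causes were not tested. In the 250 bases before the start alone, TTGAC stood in 52.6% of WRKY genes, against 44.9% of all genes. Depth limits the rarest members, since the 10 WRKY genes with at most 16 reads in any library were removed by the filter on low counts.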
